A study of Mus musculus with 12 samples.

Results

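MiR-132-3p (mmu-miR-132-3p on the array) and miR-212-3p (mmu-miR-212-3p) are 2 mature miRNAs made from neighbouring hairpins of 1 locus, and their levels were followed here in the retina and sclera of mice with form-deprivation myopia. They are the mouse miRNA names of the array that begin with miR-132 or miR-212, chosen by name and not by any measured value, and they are 2 of 696 names. All groups came from C57BL/6J mice that wore a frosted diffuser over the right eye for 10 days from postnatal day 24, with tissue taken at postnatal day 34. The myopic retina and myopic sclera are from the deprived right eyes, and the control retina and control sclera are from the undeprived left eyes of the treated mice, so that the controls carry every influence that reaches the fellow eye. Each group had 3 pools of 3 eyes, and each pool was hybridised to 1 array, giving 12 arrays. The p-values below therefore measure the spread between pools.

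The miR-132/212 locus is a textbook example of a miRNA gene switched on by neuronal activity. The transcription factor CREB, which is activated by calcium and by neurotrophins such as BDNF, drives its transcription, and light reaching the eye induces it in the visual cortex and in the circadian clock of the suprachiasmatic nucleus. In neurons, miR-132 is known to shape dendrites and spines. MiR-212 is transcribed together with it and shares its seed, the stretch near the 5′ end that selects target mRNAs.

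The mature sequences show how much the members have in common. They are printed 5′ to 3′ from RefSeq (GRCm38.p6) with the seed, bases 2 to 8, in capitals.
miR-132-3p: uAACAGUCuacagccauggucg
miR-212-3p: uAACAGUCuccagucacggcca
Both are 22 bases long and 17 positions are the same, including the first 9. Counted from 1 at the 5′ end, with miR-132-3p as the reference, the differences are A10C, C14U, U17C, U20C and G22A. Of the 1679 mature mouse miRNAs in the RefSeq table, these 2 were the only ones with this seed. Both lie on the plus strand of chromosome 11, miR-212-3p at chr11:75173443-75173464 and miR-132-3p at chr11:75173723-75173744, and 203 bases separate the 2 hairpins. In the order of the annotation, the protein-coding genes next to them are Hic1 and Ovca2. The 5p arms of both hairpins had no name on the array and were not analysed here.

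Because the seeds are the same, the array can tell the members apart only by their 3′ ends, and the probes are shown for that reason. Each member had 2 probes of different length, which start at its last base. They are printed 5′ to 3′ as in the deposited files, in lower case with the bases that do not pair with the other member in capitals.
miR-132-3p, 16-base probe: CgAccAtgGctgTaga
miR-132-3p, 15-base probe: CgAccAtgGctgTag
miR-212-3p, 13-base probe: TgGccGtgActgG
miR-212-3p, 14-base probe: TgGccGtgActgGa
Every probe carried all 5 mismatches to the other member. Compared without gaps, each matched only its own miRNA perfectly among the mature sequences, and the nearest other match was miR-7b-3p, with 2 mismatches to the 13-base probe of miR-212-3p. The miR-212-3p probes were shorter and richer in G and C (69.2% and 64.3%) than those of miR-132-3p (56.2% and 60.0%). In the build of the array's annotation (mm9), the probes lie at chr11:74987231-74987246 and chr11:74987232-74987246 for miR-132-3p and at chr11:74986954-74986966 and chr11:74986953-74986966 for miR-212-3p.

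The unit of measurement was Agilent's total gene signal, the background-subtracted fluorescence summed over the detected probes of a miRNA. Between 353 and 401 miRNAs were detected on the retina arrays and between 274 and 317 on the sclera arrays. The summed signal was 591608 to 832784 in the retina and 200662 to 382687 in the sclera, so that the choice of scaling matters for any comparison of the tissues. Values called normalized are log2 signals after quantile normalization over the 12 arrays, and 443 miRNAs detected on at least 1 array were tested with limma. A call needed an adjusted p-value under 0.05 and a change of at least 2-fold. The retinal markers miR-124-3p, miR-9-5p, miR-96-5p, miR-182-5p and miR-183-5p were called higher in the control retina than in the control sclera in 5 of 5 cases, and the fibroblast and mesenchyme markers were called lower in 6 of the 6 tested, as the tissue labels state. Of all miRNAs tested, 27.5% were called higher and 23.0% lower in this comparison. Replicate arrays had rank correlations of at least 0.986 in the myopic groups, whereas the lowest was 0.918 in the control retina and 0.941 in the control sclera. Arrays of a group always had the same place on the slide, and effects of that place cannot be told apart from those of the group.

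MiR-132-3p was a bright miRNA in the retina and a dim one in the sclera. Its total gene signal was 1076, 959.8 and 963 in the 3 control retina pools and 958, 1244 and 922 in the myopic retina pools. In the sclera the control pools gave 30.2, 35.7 and 12.1 and the myopic pools 27.2, 14.6 and 12.3. Every retina pool was far above every sclera pool, whereas control and myopic pools of either tissue overlapped. By signal it ranked 61 to 72 of 696 names on the retina arrays and 209 to 246 on the sclera arrays, and it was detected on all 12. On the normalized log2 scale the means were 9.56 ± 0.22 (SD, n = 3) in the control retina, 9.47 ± 0.03 in the myopic retina, 5.96 ± 0.09 for control sclera and 5.51 ± 0.35 for myopic sclera. In that order, the neighbouring control and myopic groups did not pass the test.

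MiR-212-3p was of moderate brightness in every pool, without the large gap between the tissues. Its total gene signal was 322, 367 and 411 in the control retina and 341, 431 and 277 in the myopic retina. The control sclera pools had 253, 302 and 192, and the myopic sclera pools had 251, 218 and 172. The retina pools were thus slightly brighter than the sclera pools before normalization, with 1 myopic retina pool (277) below the brightest control sclera pool (302). Its place among the other miRNAs ran the other way, since it ranked 108 to 130 of 696 names on the retina arrays and 76 to 99 on the sclera arrays. As a share of the summed signal it made up 0.0469% to 0.0583% of the retina arrays and 0.0710% to 0.0957% of the sclera arrays. The normalized log2 means were 8.75 ± 0.41 (SD, n = 3) for control sclera, 8.67 ± 0.08 for myopic sclera, 8.12 ± 0.15 in the control retina and 7.73 ± 0.09 in the myopic retina. Here too the control and myopic groups of a tissue, which are neighbours in this order, did not pass the test.

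**Figure D1:**
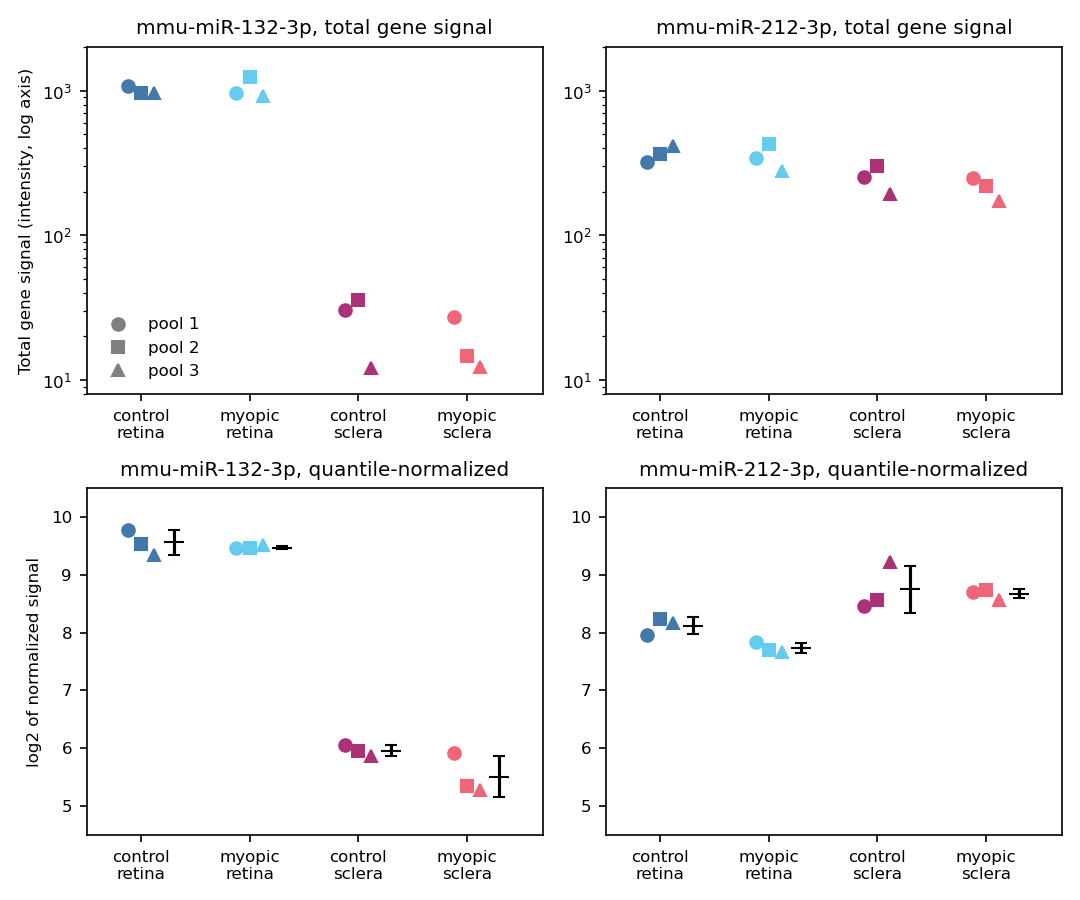
Total gene signal (top, intensity on a log axis) and normalized log2 signal (bottom) of miR-132-3p and miR-212-3p in the 3 pools of each group, with marker shapes for the pool number and bars for mean ± SD (n = 3). MiR-132-3p drops from 922 or more in the retina to 35.7 or less in the sclera, whereas miR-212-3p spans 172 to 431 over all arrays and changes its order between the tissues when the arrays are normalized.

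The first comparison asked whether form deprivation changed the members in the retina, and neither was called. For miR-132-3p the normalized pools were 9.78, 9.54 and 9.35 in the control retina against 9.46, 9.46 and 9.51 in the myopic retina. The log2 fold change was -0.08 (SE 0.18, 95% interval -0.49 to 0.33, adjusted p = 0.88 by limma), and on the 3 slides the myopic pool was higher than its control on 1. For miR-212-3p the pools were 7.95, 8.24 and 8.16 in the control retina against 7.83, 7.70 and 7.66 in the myopic retina. The myopic pool was the lower on all 3 slides, and the groups did not overlap, as was the case for 9.26% of all miRNAs tested in this direction. The log2 fold change of miR-212-3p was -0.38 (SE 0.19, 95% interval -0.82 to 0.05, adjusted p = 0.22 by limma). The intervals leave room for a fall of miR-212-3p by 0.82 and of miR-132-3p by 0.49, and for rises of 0.05 and 0.33. Without normalization the control and myopic retina pools of miR-212-3p overlapped, with slide differences of 0.08, 0.23 and -0.57. Over all 443 miRNAs, 1 was called in this comparison (0.226%), and 130 had an unadjusted p-value under 0.05.

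The retina comparison depended on the control retina pool 1. Without it, 122 miRNAs were called in place of 1, yet the members were not among them, with log2 fold changes of 0.03 (adjusted p = 1.0) for miR-132-3p and -0.47 (adjusted p = 0.12 by limma) for miR-212-3p. When limma gave each array a weight, 146 miRNAs were called, and miR-212-3p had a log2 fold change of -0.46 with an adjusted p of 0.00041, which is below the fold required for a call. Those weights ran from 0.079 to 7.9, and their estimation stopped before it converged. Over all the alternatives tried, the adjusted p of miR-212-3p ran from 0.00041 to 1.0. The 1 miRNA called with all arrays was miR-145-5p (named after its value was seen), of the fibroblast and mesenchyme markers, and the 6 tested markers of that list had a median log2 change of -1.05 in the myopic retina, against -0.12 over all miRNAs. Of these 6, miR-214-3p and miR-10b-5p were detected on no retina array, and their values there were fixed by the minimal signal. MiR-145-5p was detected on 3 control and 0 myopic retina arrays, so its myopic values were also the minimal signal. With that signal raised to the lowest one detected, 0 miRNAs were called. The part of fibroblast and mesenchyme cells in the values of the members was not tested.

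In the sclera neither member was called either. Normalized miR-132-3p was 6.05, 5.95 and 5.87 in control sclera pools against 5.91, 5.34 and 5.28 in myopic pools, so that 2 of the 3 myopic pools lay below all controls and the third between them. Its log2 fold change was -0.45 (SE 0.18, 95% interval -0.86 to -0.04), with an unadjusted p of 0.035 and an adjusted p of 1.0 by limma, and it was lower on 3 of 3 slides. Without normalization it was lower on 2 of the 3, with slide differences of -0.15, -1.29 and 0.03. For miR-212-3p the control sclera pools were 8.46, 8.57 and 9.22 against myopic pools of 8.70, 8.73 and 8.57, a log2 fold change of -0.08 (SE 0.19, 95% interval -0.52 to 0.35, adjusted p = 1.0 by limma). Without control sclera pool 3, the highest of these, the change was 0.15. None of the 443 miRNAs was called by limma (0.0%), and 13 had an unadjusted p-value under 0.05. The unmoderated linear model called 0 as well, with 19 under an unadjusted p of 0.05.

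For miR-132-3p in the sclera, the signal was close to the detection limit of its shorter probe. A probe entered the total gene signal only when its signal exceeded 3 times its error. The 15-base probe failed this in control sclera pool 3 and in myopic sclera pools 2 and 3, so that the total came from the 16-base probe alone in 3 of 12 arrays. With both probes added, the signals of these pools were 16.2, 18.6 and 15.7 in place of 12.1, 14.6 and 12.3. In alternatives chosen after seeing the data, the log2 change in the myopic sclera was -0.23 (SE 0.16) on the 16-base probe alone and -0.40 (SE 0.20) on the 15-base probe alone, each with an adjusted p of 1.0 by limma.

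Between the tissues miR-132-3p showed a large difference. The control retina exceeded the control sclera by 3.60 on the log2 scale (SE 0.18, 95% interval 3.19 to 4.01), or 12.1-fold, with an adjusted p of 1.1e-07 by limma. The myopic retina exceeded the myopic sclera by 3.97 (SE 0.18, 95% interval 3.56 to 4.38), or 15.6-fold, with an adjusted p of 5.1e-08. The groups did not overlap in either comparison, as was the case for 33.0% and 43.6% of all miRNAs tested in this direction. The retina pool was higher on 3 of 3 slides in both comparisons, with differences from 3.47 to 3.73 among control eyes and from 3.55 to 4.23 among myopic eyes. Such differences are common between these tissues, since 50.6% of the miRNAs tested were called between the control tissues, 27.5% of all tested as higher in the retina, and 58.9% were called between the myopic tissues, 32.5% as higher and 26.4% as lower. By size, miR-132-3p ranked 68 of 443 from the top in control eyes and 84 in myopic eyes. The call stood under every alternative tried, with log2 differences from 1.90 to 5.41 in control and from 1.87 to 5.93 in myopic eyes. The smallest came with the normexp background correction, whose offset of 50 is above the sclera signals of miR-132-3p. The largest came without normalization.

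The sclera pools also held retinal marker miRNAs, and their share is given beside the low miR-132-3p signal. As a percentage of the control retina mean, the total gene signal of miR-132-3p in the sclera pools was 3.03%, 3.57% and 1.21% (control) and 2.73%, 1.46% and 1.23% (myopic). MiR-124-3p, an abundant neuronal miRNA, stood at 4.42%, 5.24% and 0.27% in control pools and at 3.06%, 1.34% and 2.33% in myopic pools. MiR-9-5p, another neuronal miRNA, stood at 2.68%, 3.86% and 0.47%, and at 1.98%, 1.22% and 1.37%. Over the 6 sclera pools, the photoreceptor cluster miR-96-5p, miR-182-5p and miR-183-5p ran from 0.24% to 6.78%. All 5 retinal markers and miR-132-3p were lowest among the control pools in pool 3 and highest in pool 2, but miR-132-3p varied less, from 1.21% to 3.57%, than miR-124-3p, from 0.27% to 5.24%. Among the myopic pools the 5 markers were lowest in pool 2, whereas miR-132-3p was lowest in pool 3, and all 6 were highest in pool 1. The part of retinal RNA in the sclera signal of miR-132-3p was not tested. All these percentages are without normalization. The summed signal of the control sclera arrays had the same order, with 355707, 382687 and 200662 in pools 1, 2 and 3. Among the myopic sclera arrays it was also highest in pool 1 (321794). MiR-212-3p, in contrast, stood at 46.8% to 82.2%, yet it too was lowest in pool 3 (52.4%) and highest in pool 2 (82.2%) among the control pools. In pooled tissue, fewer cells of a type and less of the miRNA per cell cannot be told apart.

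**Figure D2:**
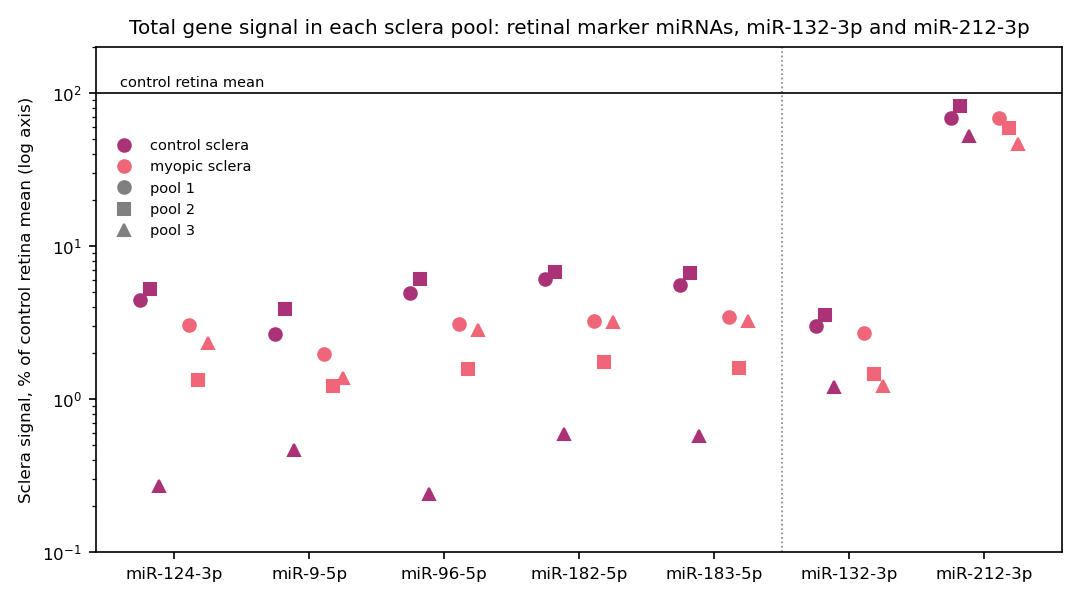
Total gene signal in each of the 6 sclera pools as a percentage of the control retina mean (log axis), for 5 retinal marker miRNAs, miR-132-3p and miR-212-3p, with colours for control and myopic sclera and shapes for the pool number. MiR-132-3p lies between 1.21% and 3.57%, within the range of the retinal markers (0.24% to 6.78%), and miR-212-3p lies between 46.8% and 82.2%.

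MiR-212-3p did not share the large tissue difference, and the sign of its own difference depended on the scaling. After quantile normalization the control retina pools (7.95 to 8.24) lay below the control sclera pools (8.46 to 9.22), as did 26.0% of all miRNAs tested. The log2 difference was -0.63 (SE 0.19, 95% interval -1.07 to -0.20, adjusted p = 0.018 by limma), which is 1.55-fold and under the fold required for a call. Between the myopic tissues it was -0.94 (SE 0.19, 95% interval -1.37 to -0.50, adjusted p = 0.0018), or 1.91-fold, and the pools again did not overlap, as for 35.0% of all miRNAs in this direction. An adjusted p under 0.05 with a lower retina level, at any fold, was found for 26.4% of miRNAs between control and 30.7% between myopic tissues. Without normalization the signs turned, to 0.58 (adjusted p = 0.095) and 0.71 (adjusted p = 0.041). When each tissue was quantile normalized by itself they were 0.74 (adjusted p = 0.0081) and 0.48 (adjusted p = 0.052). Scaling to the 75th percentile of the miRNAs detected on all arrays gave -0.46 and -0.48 with adjusted p-values of 0.091 and 0.072. Which of the tissues held more miR-212-3p is therefore not settled by these arrays.

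Set against the other miRNAs, miR-132-3p lay above and miR-212-3p below the median tissue difference under each of 4 scalings. The median of the 246 miRNAs detected on all arrays differed between control retina and control sclera by -0.24 after quantile normalization, 0.13 after 75th percentile scaling, 1.17 without normalization and 1.43 when each tissue was quantile normalized by itself. Set against that median, miR-212-3p was lower by log2 differences of -0.39, -0.59, -0.59 and -0.69 in these settings, and in myopic eyes by -0.61, -0.87, -0.87 and -0.82. It stood above 37.0% to 43.1% of these miRNAs in control eyes and above 34.6% to 39.8% in myopic eyes. Scaling to the 75th percentile and no normalization give the same distance from the median by construction. MiR-132-3p exceeded the median by 3.84 to 4.23 in control and 4.29 to 4.48 in myopic eyes, and stood above 96.7% to 98.4% of the miRNAs. The place of the change in the myopic retina moved more, from above 63.0% of these miRNAs after quantile normalization to above 31.3% after 75th percentile scaling for miR-132-3p, and from 32.9% to 10.2% for miR-212-3p.

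**Figure D3:**
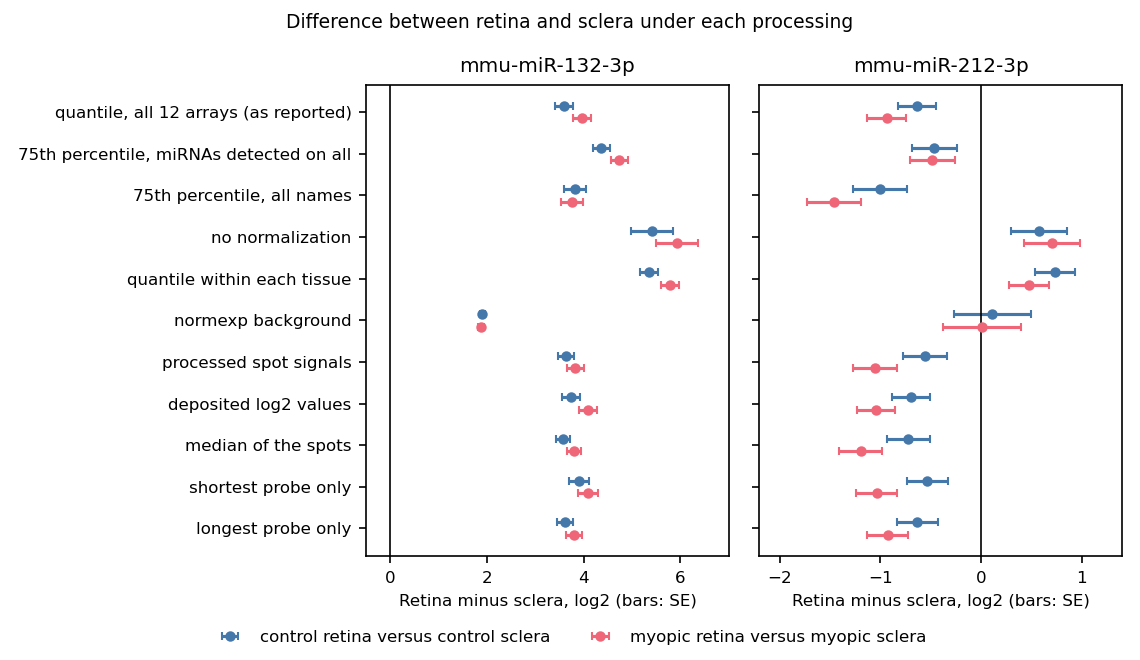
Retina minus sclera log2 difference of each member, with its SE, under 11 ways of processing, for control eyes (blue) and myopic eyes (red). MiR-132-3p is above 0 throughout (1.87 to 5.93), whereas miR-212-3p runs from -1.46 to 0.74 and lies above 0 without normalization, with normalization within each tissue and with normexp background correction.

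The change in the difference between the members on 1 array does not depend on a factor common to the whole array. Quantile normalization is not such a factor, so the changes are also given without it. Since the members are read by different probes, the size of miR-212-3p minus miR-132-3p says nothing of their relative amounts, and only its change between groups was compared. On the normalized log2 scale it was -1.44 ± 0.35 (SD, n = 3) in the control retina, -1.74 ± 0.11 in the myopic retina, 2.79 ± 0.49 for control sclera and 3.16 ± 0.32 for myopic sclera. Control retina and control sclera differed by -4.23, and myopic retina and myopic sclera by -4.90. On the total gene signal without normalization these differences were -4.83 and -5.22. Both comparisons had p = 0.10 on either scale in a two-sided exact permutation test, the smallest that 3 against 3 arrays allow. The adjusted p was 0.17 over the 5 comparisons made. That test regrouped the arrays freely and did not use the pairing of the pools by number. A grouping chosen after seeing the data set the 6 retina arrays against the 6 sclera arrays. It treats the eyes and the tissues of the same mice as independent. With this grouping the difference was -4.57 (exact permutation p = 0.0022, the smallest possible, adjusted p = 0.011). On the total gene signal without normalization it was -5.02 with the same p. Myopic and control pools overlapped. On the normalized scale, miR-212-3p minus miR-132-3p differed between them by -0.30 in the retina and 0.37 in the sclera (exact permutation p = 0.30 for each). Without normalization these differences were -0.13 (exact permutation p = 0.50) and 0.26 (exact permutation p = 0.60). In this design of 3 against 3 arrays no change could pass 0.05.

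The response to form deprivation was also compared between the tissues, as the change in the retina minus the change in the sclera. It was 0.37 (SE 0.26, 95% interval -0.21 to 0.95, adjusted p = 0.43 by limma) for miR-132-3p and -0.30 (SE 0.27, 95% interval -0.92 to 0.31, adjusted p = 0.52) for miR-212-3p. Of all miRNAs, 0.226% were called. With array weights the values were 0.50 (adjusted p = 0.032 by limma) and -0.60 (adjusted p = 0.0012), both under the fold required. In that fit 156 of the 443 miRNAs were called, and 274 had an unadjusted p-value under 0.05. These are the weights from 0.079 to 7.9 whose estimation stopped before it converged.

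Across the 6 arrays of a tissue, no correlation between the members passed the test, and its sign was not stable. In the retina Pearson's r was -0.04 (permutation p = 0.97) and Spearman's rank correlation 0.12 (permutation p = 0.84), and without the 2 arrays farthest from the median of miR-132-3p r was 0.66. In the sclera r was 0.04 (permutation p = 0.98) and Spearman's rank correlation -0.49 (permutation p = 0.33), and without the 2 farthest arrays r was -0.82. Adjusted over the 2 tissues, the p-values of r were 0.98 and those of the rank correlation 0.84 and 0.66. With 75th percentile scaling r was -0.34 (permutation p = 0.45) and the rank correlation -0.66 (permutation p = 0.17) in the retina, and r was -0.92 without the 2 farthest arrays, opposite in sign to the 0.66 above. In the sclera r was then 0.18 (permutation p = 0.92). Over deviations from the group means, r in the retina was -0.70 (permutation p = 0.13) and the rank correlation -0.78 (permutation p = 0.072), and in the sclera they were -0.13 and -0.31.

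The miRNAs whose values over the 12 arrays were most like those of miR-132-3p, among 245 detected on all arrays, were miR-181a-5p, miR-129-2-3p and miR-30b-5p, each with r = 0.995. MiR-181a-5p fell from a normalized mean of 12.2 in the control retina to 9.03 in the control sclera, and miR-129-2-3p from 12.1 to 6.78. MiR-212-3p ranked 159 in that order, with r = -0.86 after quantile normalization. Its tissue difference, which such an r mainly reflects, had the other sign without normalization. Its own nearest were miR-320-3p (r = 0.965), miR-1939_v16.0 (0.962) and miR-689_v15.0 (0.960), all with higher normalized means in the sclera. As the arrays form a retina and a sclera cluster, these correlations describe mainly the tissue difference. With the group means taken off, the nearest to miR-132-3p were miR-129-2-3p (r = 0.80), miR-3470a (0.77) and miR-22-3p (0.75), and the nearest to miR-212-3p were miR-423-5p (0.92), miR-1939_v16.0 (0.91) and miR-1839-3p (0.91). MiR-132-3p and miR-212-3p had r = -0.24 with each other on that scale. The arrays of a group share the slides with those of the other groups, and these values are a description.

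Other miRNAs that are known to respond to neuronal activity or light also did not pass the test in the myopic retina. Of 14 such miRNAs on the array, 0 were called in the retina or the sclera by limma or by the unmoderated linear model, against 1 and 0 of all 443. An unadjusted p-value under 0.05 was found for 2 of the 14 in each tissue, against 130 of the 443 in the retina and 13 in the sclera. Their median log2 changes were -0.15 and -0.04, against -0.12 and 0.00 over all miRNAs tested. The brightest of them, miR-124-3p and miR-96-5p, held top ranks in the retina, where quantile normalization gives each rank the same value on every array, and their log2 changes of 0.00 there do not show that their levels stayed the same. Between control retina and control sclera, 8 of the 14 were called higher and 2 lower, against 27.5% and 23.0% of all miRNAs, with a median of 1.68 against 0.30. MiR-138-5p, known for limiting the growth of dendritic spines, was detected on 3 of 3 retina and 0 of 3 sclera arrays in control and in myopic eyes and was called higher in both (adjusted p = 8.9e-12 and 1.2e-11 by limma). All its sclera values were the minimal signal of 0.5, without spread, so these p-values do not measure a spread between sclera pools. Set against the lowest signal detected on each sclera array, it was 10.9-fold higher in the control retina (normalized mean 7.33) and 8.98-fold higher in the myopic retina (7.03). Detection depends on the error of each probe, so an undetected miRNA can lie above that signal, and these folds are not lower limits. Among those detected on every array, the largest differences were those of miR-124-3p (log2 difference 5.09, SE 0.69), miR-96-5p (4.22, SE 0.73), miR-183-5p (3.87, SE 0.52) and miR-182-5p (3.76, SE 0.46), which are the neuronal and photoreceptor markers named above and belong to both lists. Between the myopic tissues 8 were called higher and 3 lower, against 32.5% and 26.4% of all miRNAs, with a median of 1.57 against 0.36, and the same 4 miRNAs, again the largest among those detected on every array, had log2 differences from 3.83 to 4.79.

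The precision of the members differed also within an array, where each probe was printed as 10 spots. In the retina the coefficient of variation across the spots of a miR-132-3p probe was 1.5% to 6.0%. For the miR-212-3p probes it was 12.2% to 34.2% in the retina and 21.2% to 36.2% in the sclera, and at least 20% in 23 of 24 cases. The brightest spot of a miR-212-3p probe was 1.54 to 3.31 times the dimmest, whereas for miR-132-3p in the retina it was 1.05 to 1.19 times. Over the 204 probes with a mean spot signal above 50 on all arrays, the median coefficient of variation was 4.58%, and 9 probes of 7 miRNAs (4.41%) had a median of at least 20%, both miR-212-3p probes among them. The signal of miR-132-3p in the sclera was below 50, and there its spots varied by 10.3% to 47.2%.

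**Figure D4:**
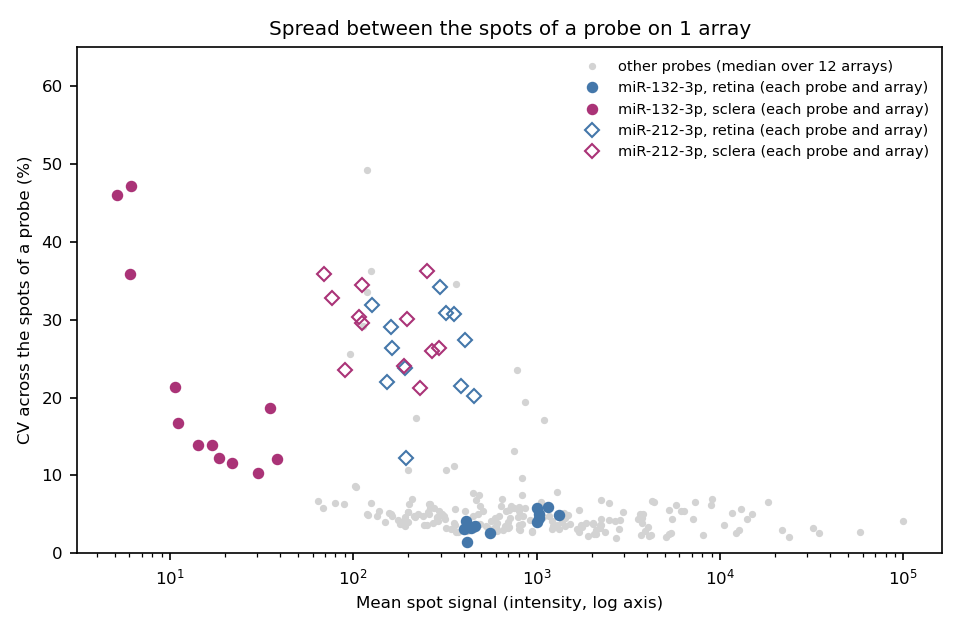
Coefficient of variation across the spots of a probe on 1 array (in percent) against the mean spot signal (log axis), for each probe of miR-132-3p and miR-212-3p on each array and, in grey, the median over the 12 arrays for other probes with a mean spot signal above 50 on all arrays. The miR-212-3p probes lie at 12.2% to 36.2%, whereas miR-132-3p in the retina lies at 1.5% to 6.0%.

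Bright and dim spots of miR-212-3p tended to lie in patches on an array. Comparing each spot of 1 probe with the nearest spot of the other, the correlation over 10 spots was 0.17 to 0.98 on the 12 arrays, above 0 on each of them. For miR-132-3p in the retina it was -0.12 to 0.59. The patches were not the same on every array. Between arrays of the same slide (18 pairs) the 20 spots had a median correlation of 0.45, with a range of -0.32 to 0.88. Between arrays of different slides (48 pairs) the median was -0.30, with a range of -0.70 to 0.90. As spots of 1 array are not independent, these values are given without a test. Computed from the processed spot signals in place of the total gene signal, the difference between myopic retina and myopic sclera was -1.05 with the mean over spots (adjusted p = 0.0016 by limma) and -1.19 with their median, an alternative chosen after seeing the data (adjusted p = 0.00060). Both passed the fold required for a call, which the -0.94 from the total gene signal did not.

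The tissue difference of each member was much the same on both of its probes. Without normalization, the control retina exceeded the control sclera by log2 differences of 5.49 on the 15-base and 5.23 on the 16-base probe of miR-132-3p. For miR-212-3p the differences were 0.79 on the 13-base and 0.60 on the 14-base probe. In myopic eyes they were 6.02 and 5.60 for miR-132-3p and 0.83 and 0.68 for miR-212-3p.

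**Figure D5:**
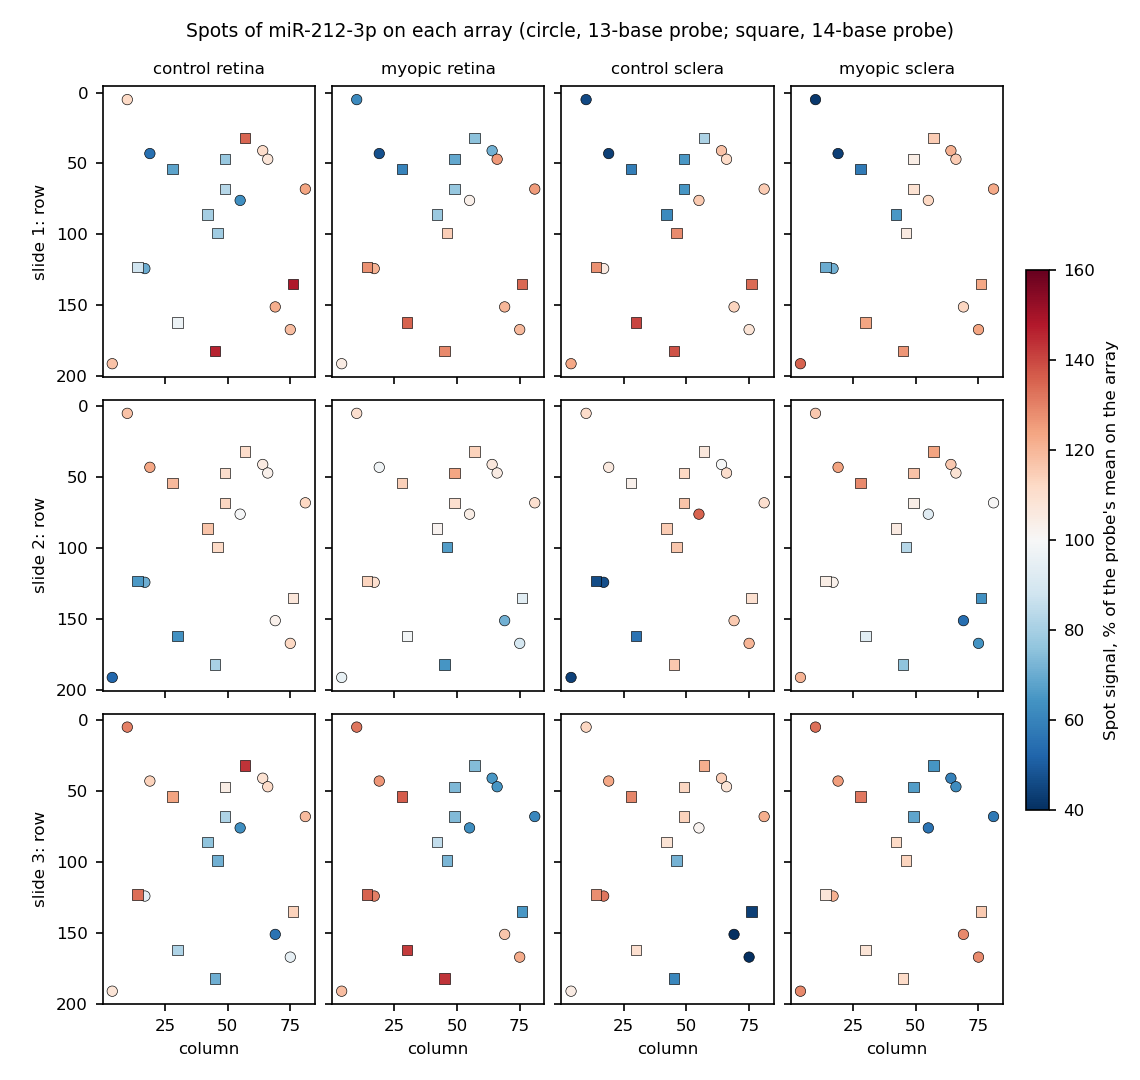
Position of the spots of miR-212-3p by row and column on the 12 arrays, with the 3 slides in rows and the 4 groups in columns, circles for the 13-base and squares for the 14-base probe, coloured by the spot signal as a percentage of the probe's mean on that array. Dim (blue) and bright (red) spots tend to lie together, in areas that are not the same on every array.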

How the data were processed

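MiRNA of 12 pools (4 groups of 3, each of 3 eyes) was measured on 1-colour Agilent mouse miRNA arrays. The sample labels speak of single mice and the methods of pools of 3 eyes, and the methods were followed for the pools. As deposited, the scanner files hold a fluorescence intensity for every spot, probe and miRNA, with the background subtracted and no normalization between arrays. An undetected miRNA has a total gene signal of 0.1. Per the file headers it was made with Feature Extraction 11.0.1.1 and probes are placed on mm9, whereas the methods name another version. A second deposited table holds log2 values (Partek 6.6 per the labels), for which the authors set a minimal signal of 0.5 and applied quantile normalization. No array had a saturated spot for a mouse miRNA.

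Here, a floor of 0.5 was put under the total gene signal before quantile normalization across 12 arrays and 696 names and log2 transformation. They had a correlation of 0.999 with the deposited values (median absolute difference 0.12). The 253 names without detection on any array were dropped, and the other 443 were tested in 1 fit of the 4 groups (limma 3.58.1, R 4.3.3, lmFit and eBayes, 8 residual degrees of freedom), two-sided, with Benjamini-Hochberg adjustment. The scripts were tested on simulated data. Further values and figures were made with Python 3.11.15, pandas 2.3.3, scipy 1.17.1 and matplotlib 3.10.9. Precision is limited by how many arrays there were. The alternatives covered normalization, minimal signal, background correction, spot and probe summaries, filters, test, block and each array left out.

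The members and lists (activity or light, and markers of retina neurons, fibroblast and mesenchyme, pigment epithelium, muscle, red blood cells, and corneal and lens epithelium) were chosen with earlier results of these data known. Beside the members, the 3 miRNAs most correlated with each were named, and up to 4 of the activity list with the largest change. Sequences were matched by name to RefSeq (528 of 696 array names).

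Pools are paired by number, since the labels give the left and right eyes of a number to the same mouse, and each number was also 1 slide and 1 scan. Deviations from the group means of same-numbered pools correlated by 0.38, -0.46 and 0.59 in the retina and -0.14, -0.16 and -0.00 in the sclera. The block was an alternative, as the methods name none.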

Additional observations from a re-analysis of the deposited data

How the results depend on the processing

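The calls of miR-132-3p between the tissues stood under all 32 alternatives, and neither member was called between myopic and control eyes, or in the difference between the tissues, under any. For miR-212-3p in control retina against control sclera, the log2 difference of -0.63 became 0.58 without normalization, 0.74 with quantile normalization within each tissue and 0.11 with normexp, and it was called at -1.0 with 75th percentile scaling over all names. In myopic eyes -0.94 became 0.71, 0.48 and 0.008 in the same 3 settings, and it was called at -1.46 with 75th percentile scaling over all names, -1.05 from the processed spot signals, -1.04 in the deposited log2 values and, in alternatives chosen after seeing the data, -1.19 with the median and -1.16 with the lower quartile of the spots and -1.03 on the shortest probe. Values that had not passed the test turned sign: miR-132-3p in the myopic retina to 0.048 without normalization, miR-212-3p in the myopic sclera to 0.15 with array weights and, chosen after seeing the data, to 0.0042 with the upper quartile of the spots and 0.0039 on the longest probe, the difference between tissues of miR-132-3p to -0.066 (75th percentile, all names) and -0.0302 (normexp) and of miR-212-3p to 0.13 (no normalization), and r in the sclera to -0.13 over deviations from the group means. The cause was not tested.

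With each array left out in turn, the log2 change in the myopic retina was -0.19 to 0.0286 for miR-132-3p (positive without control retina pool 1) and -0.47 to -0.33 for miR-212-3p, and in the myopic sclera -0.65 to -0.34 and -0.23 to 0.15 (positive without control sclera pool 3). Between control tissues it was 3.53 to 3.71 and -0.77 to -0.40 (the latter without control sclera pool 3), between myopic tissues 3.84 to 4.14 and -1.0 to -0.90 (called without myopic retina pool 1), and for the difference between tissues 0.25 to 0.57 and -0.53 to -0.15. With the replicate block, the log2 changes stayed at -0.08 and -0.38 in the retina, with adjusted p-values of 0.86 and 0.26, and the number of miRNAs called in the difference between tissues went from 1 to 0. The replicate block changed no call of the members.

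The number of miRNAs called moved more. In the myopic retina it was 1, and 0 to 146 over all alternatives (122 without control retina pool 1, 13 without myopic retina pool 3). In the sclera it was 0 to 1, and for the difference between tissues 0 to 156. Between control tissues it ran from 65 (normexp) to 286, with 128 over miRNAs detected on all arrays, and between myopic tissues from 95 to 308, with 139. Of the 224 and 261 calls, 122 and 144 were higher in the retina, against 224 of 268 and 266 of 308 without normalization and 243 of 286 and 254 of 305 with normalization within each tissue. Signal over background limits miR-132-3p in the sclera.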

Other observations

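Lists of other cell types give the setting of the tissue difference. Of 3 muscle miRNAs, 3 were called lower in the control retina than in the control sclera (median log2 difference -4.21), against 23.0% of all miRNAs, of 3 corneal and lens epithelium miRNAs 2 were (median -3.10), and of the 2 pigment epithelium miRNAs 1 was called higher (median 0.80), against 27.5%. Of 2 red blood cell miRNAs on the array, 1 was called lower (miR-451, a normalized mean of 7.75 in the control retina and 9.80 in the control sclera). In the myopic retina 0 of these were called by limma or by the unmoderated linear model, with 1 muscle miRNA under an unadjusted p of 0.05. Of the 6 fibroblast and mesenchyme miRNAs tested, 0 had a log2 change above 0 there, 3 had an unadjusted p under 0.05 and the median was -1.05 against -0.12 over all miRNAs. Of these 6, miR-214-3p and miR-10b-5p were detected on no retina array and stood at the minimal signal in both retina groups. Their change could therefore not differ from 0. The call was that of miR-145-5p, named after its value was seen, which was detected on 3 control and 0 myopic retina arrays. With the minimal signal raised to the lowest one detected, and with normexp, 0 miRNAs were called in the myopic retina by limma, with 129 and 22 under an unadjusted p of 0.05. In the myopic sclera 0 of any list were called by either test, and the 2 pigment epithelium miRNAs, miR-204-5p and miR-211-5p, had an unadjusted p under 0.05 (median log2 change -0.62).

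The 9 probes with uneven spots belonged to miR-212-3p, miR-202-3p, miR-1904, miR-1939_v16.0, miR-1198-5p, miR-712-5p and miR-1937c_v16.0. Their lengths were 12 to 15 bases with a median content of G and C of 69.2%, against 64.3% over 43 other probes of at most 15 bases and 50% over all 195 other probes. Without normalization their signals differed between control retina and control sclera by log2 values of -0.32 to 0.96. These values were looked at after the spots of miR-212-3p had been seen.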
